A study of Mus musculus with 4 samples.

Results

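A small group of injured primary sensory neurons carried transcripts of Ly6a (Sca-1), a lymphocyte surface antigen gene, together with the nerve injury gene Sprr1a. These cells were taken from single-cell RNA sequencing of mouse lumbar dorsal root ganglia (DRG) at day 7 of CCI, chronic constriction injury, in which loose ligatures are tied around the sciatic nerve. A cell entered if it had at least 1500 genes, at most 10% mitochondrial UMIs (unique molecular identifiers, 1 per captured transcript) and at least 5000 UMIs. Of these, a cell of a CCI library was a member if its Sprr1a level exceeded 1.718 CP10K (UMIs of the gene per 10000 UMIs of the cell) and its Ly6a level was at least 1 CP10K. The members were thus chosen by their measured Sprr1a and Ly6a levels, so those levels describe the group and are no result. The rule found 76 members in Male-CCI and 132 in Female-CCI, making 208, among 3879 Sprr1a+ cells and 7489 cells of the CCI libraries and 17836 cells of all 4 libraries. They were compared with the other 1684 and 1987 Sprr1a+ cells of the same libraries, which had either no Ly6a UMI or a level under the limit.

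There were 4 libraries, 1 for each sex and surgery, named Male-CCI and Female-CCI after injury and Male-Sham and Female-Sham after sham surgery. Each pooled the bilateral L4-5 DRGs of 5 mice, 20 ganglia in all, aged 7 to 8 weeks on a C57BL/6 background, and littermates of both sexes received the same surgery, so that litter and surgery cannot be told apart. All mice, sham and CCI alike, were heterozygous PirtEGFPf animals, in which farnesylated EGFP replaces the open reading frame of Pirt and is driven by the endogenous Pirt promoter, active in most primary sensory neurons. Cells were sorted for GFP before capture, and CCI was bilateral. The sort and the ganglion pool mean that neurons with and without a ligated axon were captured together.

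Ly6 proteins are small, mostly glycolipid-anchored surface proteins with a shared three-finger fold. Ly6a is best known as a marker of haematopoietic and vascular cells and as a gene that interferons induce, Ly6c1 as a marker of endothelial cells and monocytes, and Ly6g as a marker of neutrophils. Sprr1a, a cornified envelope protein gene, is nearly silent in intact sensory neurons and is switched on after axotomy along with Atf3, Gal and Gap43. Peptidergic nociceptors carry Calca (calcitonin gene-related peptide), Tac1 (substance P) and the heat and capsaicin channel Trpv1, and some of them carry the neuropeptide Y receptor gene Npy1r.

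The members carried pan-neuronal genes. The tubulin gene Tubb3 stood at 8060 CPM (UMIs of the gene per 1000000 UMIs, summed over cells) in Male-CCI members and 6705 CPM in Female-CCI members, against 5967 and 5621 CPM in the other Sprr1a+ cells. Total UMIs per library ran from 195684124 to 237069156, and the cells that passed numbered 3343 to 6440 per library, of 4019 to 8035 deposited. Members had a median of 54147.5 UMIs in Male-CCI and 39544.5 in Female-CCI, against 60656 and 47349 in the other Sprr1a+ cells. At an equal 5000 UMIs per cell the median number of genes was 2169 and 2168 in members and 2154 and 2125 in the others. No member had more Apoe and Fabp7 UMIs, which mark satellite glia, than UMIs of 4 pan-neuronal genes. No member shared its barcode with a member of another library, although 1 to 7 barcodes among passing cells were shared by each pair of libraries. The doublet caller's own threshold marked 0 cells in either CCI library and so did not separate doublets. Members fell among the top 15% of doublet scores of their library in 21.1% and 27.3% of cases, against 17.3% and 19.2% of the other Sprr1a+ cells. Without such cells the members were 4.13% and 5.64% of Sprr1a+ cells.

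Members made up a small share of the injured neurons of both sexes. In Male-CCI 4.32% of Sprr1a+ cells were members (exact 95% interval 3.42 to 5.38%), and in Female-CCI 6.23% (5.24 to 7.34%). As a share of all cells that passed, they were 2.27% (1.80 to 2.84%) and 3.18% (2.67 to 3.76%). The intervals cover counting error only, and, with 1 library for each sex and surgery, no test of sex or surgery was made. In the sham libraries 3 of 72 and 4 of 232 Sprr1a+ cells passed the Ly6a limit, which is 4.17% (0.868 to 11.7%) and 1.72% (0.472 to 4.36%). Of all sham cells they were 0.0768% and 0.0621%.

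Free RNA in the droplets can give a Ly6a UMI to cells that do not express the gene, so the share with any UMI was also taken after every cell was thinned to 5000 UMIs. It was then 5.63% of Sprr1a+ cells in Male-CCI and 6.65% in Female-CCI, and 2.65% and 3.80% of the CCI cells with less Sprr1a. Low-Sprr1a cells of the sham libraries gave 0.991% and 1.18%. Cells with more satellite glia than pan-neuronal UMIs, used as a background level, gave 0.529% in Male-CCI and 2.53% in Female-CCI, at median depths of 21639 and 20069 UMIs before thinning, and 0.233% and 1.58% in the sham libraries of males and females. These cells are not clean glia, since a Calca UMI was found in 50.3% and 73.2% of those of Male-CCI and Female-CCI after thinning, so their share is not a level of free RNA alone. Without thinning, 22.9% and 21.1% of Sprr1a+ cells had at least 1 Ly6a UMI, so that most such cells held only a trace.

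The Ly6a level varied widely among members. It ran from 1.03 to 68.0 CP10K with a median of 3.67 in Male-CCI, and from 1.00 to 53.6 with a median of 2.86 in Female-CCI, which corresponds to medians of 17.5 and 10.5 Ly6a UMIs per cell. Their Sprr1a level had medians of 34.0 and 19.1 CP10K. The limit did not fall in a gap of the distribution. There were 12 and 20 cells just outside it at 0.8 to 1 CP10K and 5 and 14 just inside at 1 to 1.2. Just outside and just inside, the summed Npy1r level was 237 and 224 CPM in Male-CCI and 136 and 217 CPM in Female-CCI. The Nts level was 245 and 44.8 CPM in Male-CCI and 1271 and 737 CPM in Female-CCI.

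**Figure D1:**
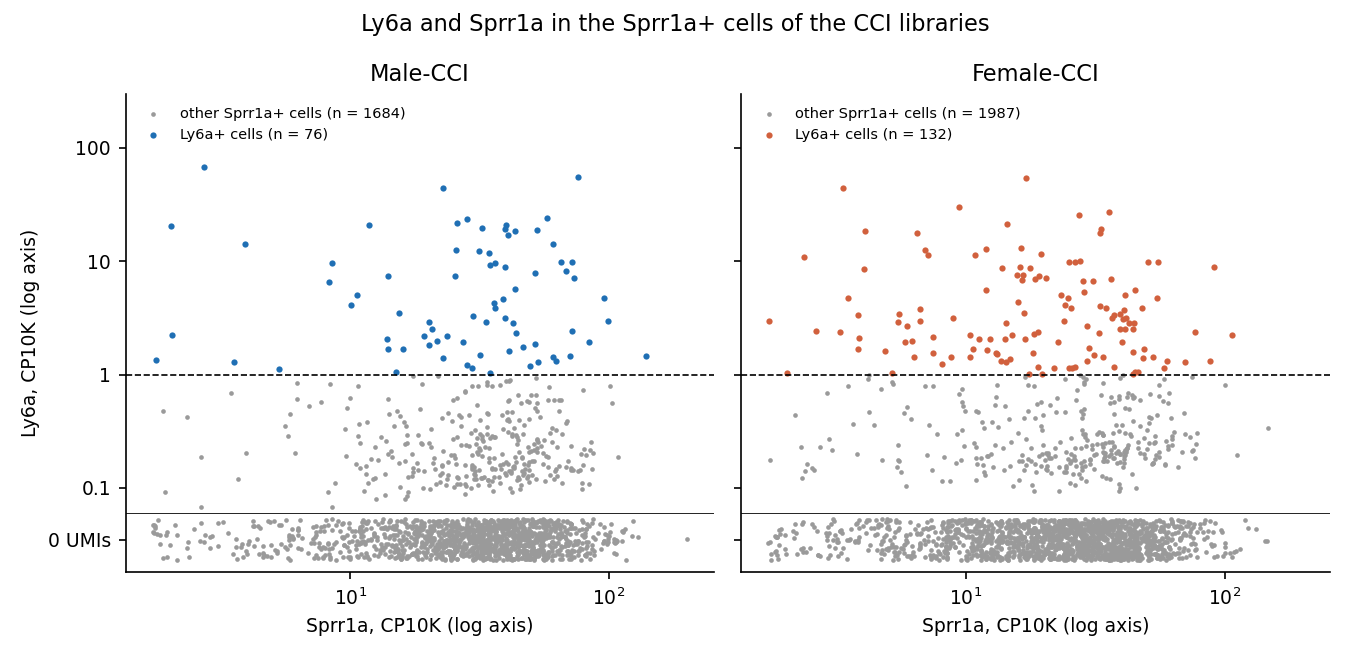
Ly6a against Sprr1a level of every Sprr1a+ cell, in CP10K on log axes, for Male-CCI (left) and Female-CCI (right); cells with 0 Ly6a UMIs are drawn in the strip at the bottom, and the dashed line marks the membership limit of 1 CP10K. The 76 and 132 members lie above the line and reach 68.0 and 53.6 CP10K, across most of the range of Sprr1a.

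Ly6a lies at chr15:74994877-74998031 on the minus strand (mm10, ENSMUSG00000075602), in a cluster of Ly6 genes. Ly6c1 lies at chr15:75044018-75048830 on the minus strand and Ly6g at chr15:75155240-75159126 on the plus strand, 50799 and 157209 bases from the start of Ly6a. These genes marked the cells when the group was defined, so their levels are given without a test. Summed over cells, Ly6a stood at 844 CPM in Male-CCI members and 558 CPM in Female-CCI members, against 5.84 and 5.40 CPM in the other Sprr1a+ cells. Ly6c1 stood at 182 and 133 CPM in members and 4.63 and 6.98 CPM in the others. Ly6g stood at 122 and 168 CPM in members and 15.3 and 19.3 CPM in the others. The gap in Ly6a was set by the membership rule. For Ly6c1 and Ly6g both member pools also lay above both other pools, but as markers of the group from the start they are no result either.

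The 3 genes were often found in the same cells. A Ly6c1 UMI was present in 60 of 76 Male-CCI members (78.9%) and 94 of 132 Female-CCI members (71.2%), and a Ly6g UMI in 67 (88.2%) and 110 (83.3%). Both were present in 53 and 83 members, Ly6c1 alone in 7 and 11, Ly6g alone in 14 and 27, and neither in 2 and 11. At 5000 UMIs per cell a Ly6c1 UMI was found in 31.6% and 34.8% of members and 1.84% and 2.32% of the other Sprr1a+ cells. For Ly6g these shares were 36.8% and 38.6% against 6.18% and 6.95%. Part of the 3' end of Ly6c1 occurs letter for letter in transcripts of other Ly6 genes. Of the windows of 91 bases, one read length, in the last part of their coding transcripts, 0 of 730 for Ly6a and 0 of 633 for Ly6g occurred in another gene's transcripts, whereas 223 of 1651 for Ly6c1 (13.5%) did, 195 of them in Ly6c2 and 28 in Ly6a. The Ly6c1 level is therefore uncertain to that extent. Ly6c2 itself stood at 0.485 CPM or less in the members of either library.

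The promoters of Ly6c1 and Ly6g are shown because these neighbouring genes, which mark immune and vascular cells elsewhere, were detected together in the members. Each window runs 5′ to 3′ on the gene's own strand, from 250 bases before to 50 bases after the start of transcription (RefSeq, GRCm38.p6). Ly6c1 is at chr15:75048788-75049087, minus strand, and Ly6g at chr15:75155011-75155310, plus strand. The windows aligned over 256 bases, of which 215 were identical (84.0%), and the capitals mark their longest shared run, 37 bases.
Ly6c1: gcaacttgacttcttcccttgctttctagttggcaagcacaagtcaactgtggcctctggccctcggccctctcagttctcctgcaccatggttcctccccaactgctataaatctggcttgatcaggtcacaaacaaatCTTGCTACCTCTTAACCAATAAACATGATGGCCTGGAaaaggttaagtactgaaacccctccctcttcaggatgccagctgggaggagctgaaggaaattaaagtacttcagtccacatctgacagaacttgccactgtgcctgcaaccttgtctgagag
Ly6g: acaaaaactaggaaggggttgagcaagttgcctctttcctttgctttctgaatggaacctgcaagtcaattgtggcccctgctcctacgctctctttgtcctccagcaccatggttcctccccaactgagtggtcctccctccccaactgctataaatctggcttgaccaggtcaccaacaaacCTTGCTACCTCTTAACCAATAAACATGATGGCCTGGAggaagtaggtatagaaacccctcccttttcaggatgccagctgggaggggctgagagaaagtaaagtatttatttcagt
Neither window held the STAT site TTCNNNGAA, the AP-1 site TGANTCA or the CRE site TGACGTCA on either strand. Of all 32851 promoter windows of this length, 8.30%, 7.81% and 1.79% held these letters on either strand. The window of Sprr1a held 2 matches to the AP-1 letters. No window for Ly6a was in the reference table.

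Beyond the genes that defined them, the members stood apart from other injured neurons in both directions. UMIs were summed over cells within each library, and the member sums were compared with the sums of the other Sprr1a+ cells by edgeR's quasi-likelihood test with library as a block, called at a Benjamini-Hochberg adjusted p under 0.05 and a log2 change over 0.5 in size. Of 15113 genes tested, 2715 were called (18.0%), 1411 higher in members (9.34%) and 1304 lower (8.63%). The counts of gene lists in this comparison are to be read against these shares. The median change over all genes was -0.02 on the log2 scale. Only 1 degree of freedom was left for the spread, which is borrowed across genes, so the p-values measure the agreement of 2 libraries of pooled mice.

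The largest rises were taken among called genes with the same direction in both libraries and at least 20 CPM in both member pools. Agreement in sign between the sexes was thus required and is no result. Sectm1b, a secreted and transmembrane protein gene, stood at 91.7 CPM in Male-CCI members and 93.5 CPM in Female-CCI members against 8.47 and 9.54 CPM in the others (log2 change 3.32, SE 0.09). Kcnk3, an acid-sensitive leak potassium channel, stood at 112 and 113 CPM against 11.6 and 12.9 CPM (3.15, SE 0.08). Npy1r stood at 255 and 271 CPM against 36.3 and 37.2 CPM (2.79, SE 0.06). In each case the members of the 2 sexes were close to each other and the other pools lay far below. Cyp26a1, which degrades retinoic acid, rose from 4.93 and 4.61 CPM in the others to 49.7 and 46.2 CPM in members (3.28, SE 0.13). Dcn, the matrix proteoglycan decorin, rose from 18.0 and 14.1 to 122 and 106 CPM (2.79, SE 0.08), but a Dcn UMI was present in 27.6% and 25% of members and 29.7% and 24.1% of the others, so that a minority of members carried the rise. The transcription factor Bcl11a rose from 3.66 and 4.53 to 24 and 24.6 CPM (2.52, SE 0.16). The cytokine Il6 and the prostaglandin E receptor Ptger4 also rose, Il6 from 4.66 and 4.77 to 28.4 and 23.2 CPM and Ptger4 from 5.69 and 6.72 to 34.0 and 34.1 CPM. Syt16, the secreted glutathione peroxidase Gpx3, the BK channel subunit Kcnmb2 and the growth factor Tgfa completed the 12 largest rises, with log2 changes of 2.47, 2.33, 2.26 and 2.26. The adjusted p of these 12 was at most 3.19e-33.

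The largest falls were taken by the same rule, with at least 20 CPM in both pools of the others. Fam19a4, a secreted protein of C-fibre low-threshold mechanoreceptors, was at 1.46 and 1.75 CPM in members and 28.2 and 36.0 CPM in the others (log2 change -4.37, SE 0.21). Nts, the neuropeptide neurotensin, was at 186 and 231 CPM in members and 1876 and 2023 CPM in the others (-3.27, SE 0.06). Crh, corticotropin-releasing hormone, was at 5.34 and 13.3 CPM in members and 96.8 and 86.6 CPM in the others (-3.28, SE 0.30, adjusted p = 0.00533). Both member pools lay below both other pools for each of the 3 genes. Flnc, an actin-crosslinking filamin, fell from 65.6 and 62.9 to 4.37 and 6.43 CPM (-3.59). The transcription factor Casz1 fell from 28.4 and 30.5 to 2.43 and 3.90 CPM (-3.24), and Ntrk3, the receptor for neurotrophin-3, from 35.6 and 34.8 to 3.64 and 4.87 CPM (-3.07). Lhfpl2, Ppm1j, Pcolce2, Tmem45b and the amino acid transporter Slc6a19 fell by 3.94, 3.34, 3.18, 3.01 and 2.91 on the log2 scale. Npy, the neuropeptide whose receptor rose, was at 3.88 and 10.1 CPM in members and 277 and 169 CPM in the others, but did not pass the test (-4.92, SE 0.53, adjusted p = 0.0896).

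**Figure D2:**
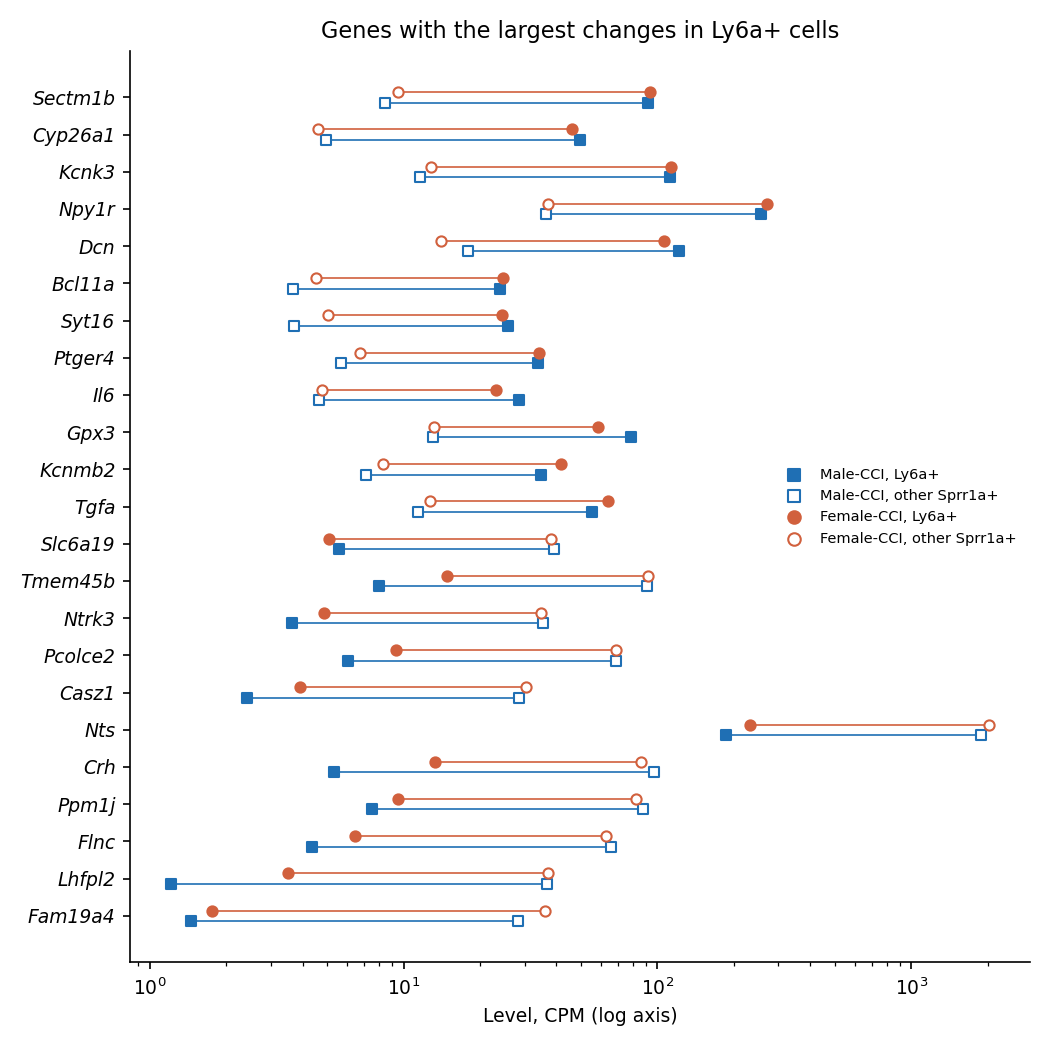
Level in CPM (log axis) of the 12 genes with the largest rise and 11 of the 12 with the largest fall, in the summed UMIs of Ly6a+ Sprr1a+ cells (filled) and other Sprr1a+ cells (open), squares for Male-CCI and circles for Female-CCI. For every gene drawn, the filled symbols of both sexes lie on the same side of both open symbols. Only genes with the same direction in both libraries were eligible.

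Most peptidergic nociceptor genes were higher in members than in the other Sprr1a+ cells. Of 15 tested, 12 were called higher (9.34% of all genes were) and 0 lower, with a median log2 change of 1.41. Npy1r, Dcn and Gpx3, named above, are among them. The summed level of the list was 2555 and 2683 CPM in members and 1199 and 1296 CPM in the other Sprr1a+ cells. In the CCI cells under both the Sprr1a and the Ly6a limit it was 12310 and 13687 CPM. Trpv1 stood at 123 and 117 CPM in members against 30.4 and 33.8 CPM in the others (1.85, SE 0.07). Kit, a receptor tyrosine kinase of peptidergic neurons, stood at 88.0 and 77.8 CPM against 21.7 and 22.8 CPM (1.84). Gfra3, the artemin receptor, stood at 425 and 354 CPM against 186 and 180 CPM (1.03). Calca and Tac1 rose less, by 0.73 and 0.60. A Tac1 UMI was found in 18.4% of Male-CCI members and 15.7% of the others at 5000 UMIs per cell. The Tac1 level was uneven over members with Ly6a at 1 to 2, 2 to 5, and 5 CP10K and over. It was 128, 35.4 and 124 CPM in Male-CCI, against 69.8 CPM in cells with 0 Ly6a UMIs. In Female-CCI it was 278, 127 and 132 CPM, against 112 CPM. At 5000 UMIs per cell, a Trpv1 UMI was found in 46.1% and 39.4% of members and 12.6% and 13.6% of the others, an Npy1r UMI in 52.6% and 54.5% against 11.8% and 11.9%, and a Calca UMI in 81.6% and 79.5% against 48.3% and 59.6%.

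The lists of other neuron types mostly fell or were mixed. For the non-peptidergic type that carries Nppb and Sst (NP1) 0 of 8 tested genes were higher and 4 lower, with Nts among them (median -0.51). For those that carry Mrgprd (NP2) 0 of 8 were higher and 5 lower, with a median of -1.17, or -0.87 when Agtr1a, at 0 UMIs in all members, is set at the limit that 3 UMIs allow. P2rx3, the ATP receptor channel of these neurons, stood at 10.7 and 10.9 CPM in members and 29.6 and 35.5 CPM in the others (-1.65, SE 0.13). C-fibre low-threshold mechanoreceptor genes were 1 higher and 6 lower of 10 (median -1.99). With DESeq2 the lower genes of these 3 lists numbered 2, 2 and 2, and without the library block 3 of the NP2 genes were lower. Large myelinated neuron genes were 4 higher and 7 lower of 19 (median -0.51), with the calcium pump Atp2b4 higher (1.84) and Ntrk3 lower. Nefh, the heavy neurofilament gene, was found at equal depth in 48.7% and 48.5% of members and 52.5% and 47.6% of the others. Of the cold-sensing peptidergic genes 1 of 5 was lower, and the single gene tested for the type that carries Mrgpra3 (NP3) was not called. Among 7 pan-neuronal genes Rbfox3, a neuronal splicing factor, was called higher (0.74) and 0 were lower. The cold-sensing list had 20% of genes called and the pan-neuronal list 14.3%, near the 18.0% of all genes.

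Sensory neuron identity transcription factors split as well, 5 higher and 8 lower of 28 (median 0.08). Beside Bcl11a, Zeb2 rose from 57.8 and 58.3 to 129 and 132 CPM (1.12) and the nociceptor factor Prdm12 from 26.2 and 25.6 to 39.3 and 43.5 CPM (0.63). Zfhx3 fell from 64.1 and 63.0 to 20.6 and 23.4 CPM (-1.57), and Shox2, a factor of touch neurons, from 8.96 and 7.99 to 1.21 and 1.36 CPM (-2.74).

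**Figure D3:**
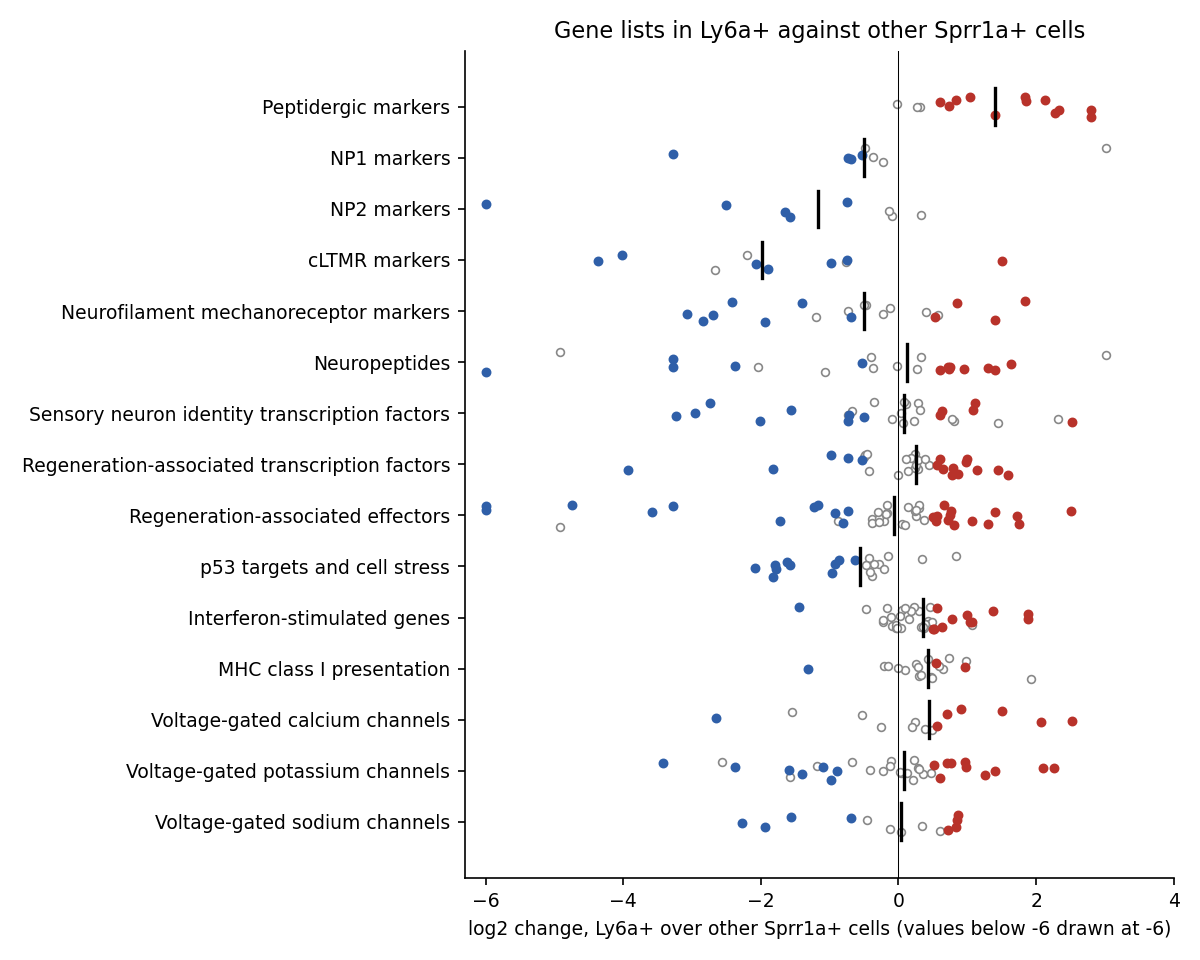
Log2 change between Ly6a+ and other Sprr1a+ cells of each tested gene in 15 gene lists; red points were called higher, blue points lower, open points were not called, the black bar is the list's median, and values below -6 are drawn at -6. The peptidergic list sits highest with 12 of 15 genes called higher, and the p53 and cell stress list has 10 of 20 genes called lower and 0 higher.

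Since Npy1r marked the members so clearly, the shares and the comparison were taken again among Sprr1a+ cells with at least 1 Npy1r UMI. Members were 70 of 634 such cells in Male-CCI (11%, interval 8.71 to 13.7%) and 6 of 1126 cells without an Npy1r UMI (0.533%, 0.196 to 1.16%). In Female-CCI they were 113 of 782 (14.5%, 12.1 to 17.1%) and 19 of 1337 (1.42%, 0.858 to 2.21%). Within the Npy1r cells 1614 of 13584 genes were called (11.9%), 756 higher (5.57%) and 858 lower (6.32%). Apart from Npy1r, which chose these cells, all of the 12 largest rises and all 12 of the largest falls were called the same way there, with Kcnk3 at 2.02, Sectm1b at 2.30 and Nts at -2.37. These cells held 70 of the 76 Male-CCI members and 113 of the 132 Female-CCI members, and the genes were picked from the same members. The agreement was therefore largely built in and is not separate evidence. Of the peptidergic genes, Npy1r among them, 8 of 15 were called higher (median 0.67), and of the large myelinated neuron genes 3 were higher and 11 lower of 19. This restriction was chosen after the values were seen.

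Neuropeptide genes were divided among those that rose and those that fell. Of 22 tested, 8 were higher and 5 lower (median 0.12). Gal, the neuropeptide galanin, stood at 14058 and 15315 CPM in members against 5607 and 5948 CPM in the others (1.30, SE 0.05), and a Gal UMI was found at equal depth in all 76 and 132 members against 80.9% and 84.0% of the others. Adcyap1, which encodes PACAP, rose from 48.5 and 52.9 to 128 and 150 CPM (1.41), and Cartpt from 34.4 and 30.0 to 96.0 and 108 CPM (1.63). Nts and Crh fell as given above, and the urocortin gene Ucn fell from 66.5 and 62.3 to 13.6 and 12.1 CPM (-2.38). An Nts UMI was found at equal depth in 27.6% and 28.8% of members and 81.1% and 79.2% of the others. For Npy the shares were 1.32% and 3.03% against 21.3% and 20.8%. Among the Npy1r cells the neuropeptide count turned to 3 higher and 8 lower of 22.

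Injury genes were found in members and others, some of them at different levels. Atf3, the stress transcription factor of axotomised neurons, stood at 927 and 805 CPM in members and 1154 and 1205 CPM in the others, and its log2 change of -0.50 (SE 0.05) fell just short of the size required for a call. At equal depth an Atf3 UMI was found in 96.1% and 95.5% of members and 97.0% and 97.8% of the others. Sprr1a, which chose the cells in both groups, stood at 3787 and 2468 CPM in members and 3436 and 2714 CPM in the others. Of 31 regeneration-associated transcription factors 11 were higher and 5 lower (median 0.26). Sox4 rose from 55.0 and 55.9 to 132 and 181 CPM (1.45), Cebpd from 28.9 and 34.5 to 75.2 and 69.8 CPM (1.14), and the immediate early genes Fos and Egr1 by 1.00 and 0.99. Ddit3, the stress factor CHOP, fell from 148 and 170 to 47.8 and 45.2 CPM (-1.83), and Atf5 and Cebpb fell by 0.73 and 0.98.

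Regeneration-associated effectors were 14 higher and 11 lower of 46 tested (median -0.06). The growth cone protein gene Gap43 rose from 3014 and 2976 to 5302 and 4889 CPM (0.72), the tubulin gene Tuba1a from 6471 and 6538 to 10314 and 9326 CPM (0.55), and the lectin gene Lgals1 from 1097 and 1054 to 2468 and 2201 CPM (1.07). The protease inhibitor Timp1 rose by 1.75, and the neurotrophin Bdnf by 0.81. Ecel1, a membrane peptidase of injured neurons, fell from 214 and 201 to 92.6 and 89.8 CPM (-1.23), and Cryba2 from 96.9 and 102 to 25.7 and 36.0 CPM (-1.72). Reg3b and Reg1 were at 0 UMIs in all members, where a count of 3 UMIs would be 0.728 and 0.585 CPM. Within cytokine signalling through gp130, 5 genes were higher and 3 lower of 16 (median -0.11): Il6, the kinases Jak2 and Tyk2, the CNTF receptor Cntfr and the feedback inhibitor Cish rose, while the oncostatin M receptor Osmr was among those that fell.

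Genes of p53 and the integrated stress response fell or did not pass the test. Of 20 tested, 10 were lower and 0 higher, with a median log2 change of -0.55. Phlda3, a p53 target, stood at 38.3 and 39.0 CPM in members and 135 and 122 CPM in the others (-1.78, SE 0.08). Chac1, a target of Atf4, stood at 15 and 8.38 CPM against 37.8 and 38.4 CPM (-1.79, SE 0.13), and the asparagine synthetase gene Asns at 174 and 129 CPM against 290 and 281 CPM (-0.97, SE 0.07). Both member pools were below both other pools for these genes. After thinning 9 of 18 were lower and 0 higher, and among the Npy1r cells 9 of 19 were lower and 0 higher.

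Ion channel lists were mixed, apart from the calcium channels. Of 14 voltage-gated calcium channel genes 6 were higher and 1 lower (median 0.44). Cacna1h, a T-type channel, rose from 7.36 and 8.45 to 23.3 and 23.4 CPM (1.51), while the auxiliary subunit Cacna2d3 fell from 26.1 and 23 to 3.40 and 4.48 CPM (-2.66). Among the Npy1r cells the count was 3 higher and 1 lower of 13. Voltage-gated potassium channel genes were 10 higher and 7 lower of 34 (median 0.08). Kcnc1, a fast delayed rectifier, and Kcnc4 rose by 1.40 and 1.26. Kcnq3, a subunit of the M-current, instead stood at 1.70 and 1.36 CPM against 17.6 and 14.1 CPM (-3.42, SE 0.26). Voltage-gated sodium channel genes were 4 higher and 4 lower of 13, with Scn8a, a main channel of myelinated axons, falling by 1.57. Of 24 TRP, P2X, ASIC, Piezo and HCN channel genes 7 were higher and 4 lower. Trpv1 led the rises over 20 CPM, and Piezo2, the mechanically gated channel of touch neurons, stood at 25.7 and 29.0 CPM in members and 82.0 and 82.2 CPM in the others (-1.63, SE 0.09). Neurotrophin and GDNF receptor genes were 5 higher and 4 lower of 13, with Ngfr, the low-affinity neurotrophin receptor, higher (0.77) and Gfra1, the GDNF receptor, lower (-1.61). Integrin genes were 4 higher and 2 lower of 16, and 2 and 1 with DESeq2.

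Other Ly6 family members did not rise as a family. Of 14 tested beside Ly6a, Ly6c1 and Ly6g, 3 were higher and 5 lower (median -0.57). Ly6e, on the other side of Ly6a at chr15:74955051-74959905, stood at 110 and 115 CPM in members against 35.0 and 31.5 CPM in the others (1.72, SE 0.07). Lynx1, a modulator of nicotinic receptors, stood at 284 and 266 CPM against 160 and 137 CPM (0.85, SE 0.06). Cd59a, an inhibitor of complement lysis, stood at 118 and 135 CPM in members and 306 and 290 CPM in the others (-1.27, SE 0.06). Lypd1 and Plaur, the urokinase receptor, fell by 2.05 and 0.93. Of the cluster's other genes, Ly6d, Ly6f, Psca and Lypd2 were at 0 UMIs in all members. Genes that build the glycolipid anchor were 2 higher and 2 lower of 27 (14.8% called, median 0.01).

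Interferon-stimulated genes were 11 higher and 1 lower of 39 (median 0.36). Ifitm2, which blocks viral entry, stood at 51.4 and 73.5 CPM in members against 14.5 and 18.2 CPM in the others (1.88, SE 0.09), and Oasl2 at 84.9 and 109 CPM against 41.4 and 49.9 CPM (1.04, SE 0.07). The signalling factor Stat2 and the RNA sensor Ddx58 rose by 0.63 and 0.77. Thinning left 3 higher and 0 lower of 35, where 538 of all 11543 genes were higher and 548 lower. Among the Npy1r cells 6 were higher and 0 lower of 39, where 5.57% of all genes were higher and 6.32% lower. Without the library block 7 were higher and 0 lower of 39, where 1364 of all 15113 genes were higher and 1227 lower. Interferon receptor and signalling genes were 3 higher and 1 lower of 9, with Socs1, a feedback inhibitor, rising by 0.83. Of 19 genes of antigen presentation by MHC class I, 2 were higher and 1 lower, with a median of 0.43. That is 15.8% called, against 18.0% of all genes.

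Most markers of other cell types did not rise in the members. Of 6 macrophage genes tested 0 were higher and 4 lower (1 lower with DESeq2), and the complement genes C1qa and C1qb were at 0 UMIs in all members against 5.60 and 2.38 CPM and 4.46 and 2.37 CPM in the others. The neutrophil list had 1 gene tested, S100a8, which was lower, and no T cell gene reached the level for a test. Satellite glia genes were 1 higher of 6, Apoe, at 875 and 1333 CPM against 660 and 769 CPM (0.56, SE 0.06), but -0.02 and not called after thinning. Schwann cell genes were 0 of 5 called, and fibroblast and mural cell genes 1 lower of 6 and 1 lower of 4. Of 6 endothelial genes tested 1 was called, Flt1, a VEGF receptor, at 13.8 and 25.1 CPM against 2.92 and 3.66 CPM (2.50, SE 0.18). The satellite glia, fibroblast and endothelial lists each had 16.7% of genes called, near the 18.0% of all genes. The summed endothelial level was 71.8 and 85.7 CPM in members and 53.2 and 56.2 CPM in the others, and the defining gene Pecam1 was at 0.485 and 0.195 CPM in members. Cells with any UMI of Pecam1, Cldn5, Cdh5 or the leukocyte gene Ptprc were 3.95% and 1.52% of members and 3.62% and 3.57% of the others, and without them 2696 genes were called.

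Levels also differed along Ly6a below the limit. With Sprr1a+ cells binned by Ly6a at 0 UMIs, above 0 to 1, 1 to 2, 2 to 5, and 5 CP10K and over, the bins held 1357, 327, 24, 19 and 33 cells in Male-CCI and 1671, 316, 44, 47 and 41 in Female-CCI. Npy1r stood at 24.2, 77.9, 214, 295 and 262 CPM over these bins in Male-CCI and 29.9, 69.6, 201, 292 and 333 CPM in Female-CCI. Nts stood at 2046, 1299, 325, 83.1 and 144 CPM and at 2170, 1368, 326, 184 and 166 CPM. In both libraries Npy1r was higher and Nts lower in each member bin than in the bins under the limit. Both genes were picked from the comparison of these same members and others, so that step was largely built in and is no result. Ly6c1 went on upward among the members, at 71.2, 91.7 and 318 CPM in Male-CCI and 51.8, 141 and 223 CPM in Female-CCI. Dcn differed among members, at 13.0, 9.56 and 269 CPM in Male-CCI, where the third bin alone was high, and 56.6, 131 and 139 CPM in Female-CCI. The Male-CCI bin of 2 to 5 CP10K holds under 20 cells, and no test was made along the bins.

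**Figure D4:**
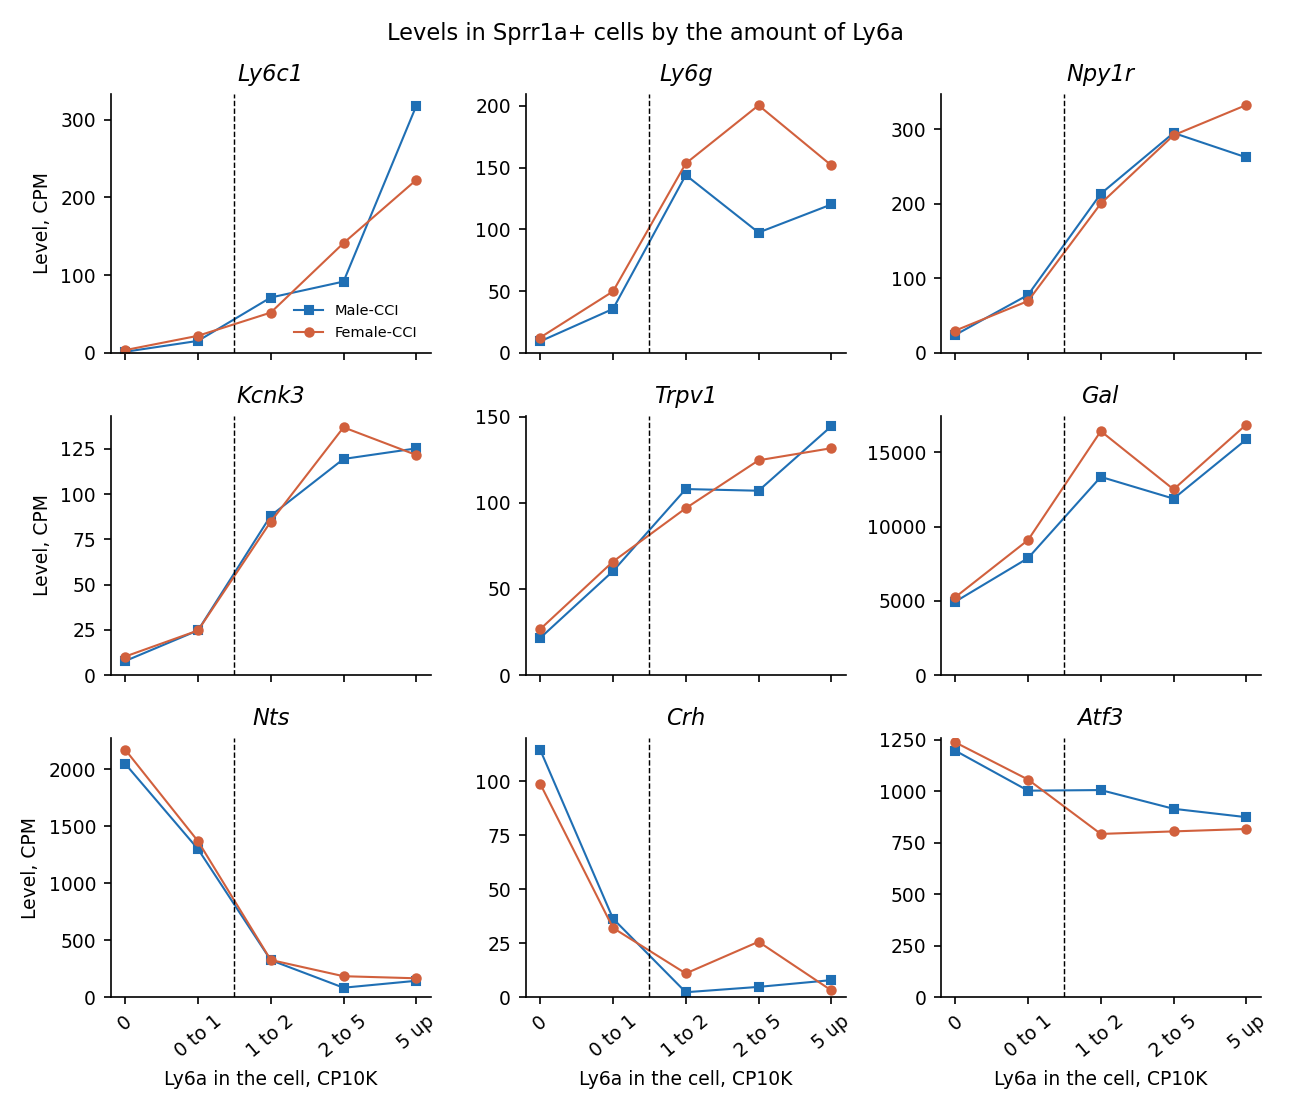
Level in CPM of 9 genes over bins of the Ly6a level (CP10K) among Sprr1a+ cells of Male-CCI and Female-CCI; the dashed line marks the membership limit. Npy1r goes from 24.2 and 29.9 CPM in cells with 0 Ly6a UMIs to 262 and 333 CPM in the highest bin, and Nts from 2046 and 2170 CPM to 144 and 166 CPM. Npy1r and Nts were picked for their difference across the dashed line in these same cells.

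Ly6a was also found in cells with little Sprr1a, not all of them shown to be neurons. In Male-CCI a Calca UMI was present in 24 of the 27 such Ly6a+ cells. Among cells at or under the Sprr1a limit, the Ly6a limit was passed by 27 of 1583 in Male-CCI (1.71%, interval 1.13 to 2.47%) and 59 of 2027 in Female-CCI (2.91%, 2.22 to 3.74%). In the sham libraries it was passed by 30 of 3835 (0.782%) and 48 of 6208 (0.773%). In the Ly6a+ low-Sprr1a cells of the CCI libraries Ly6c1 stood at 139 and 113 CPM and Ly6g at 52.7 and 33.2 CPM, against 1.06 and 1.42 CPM and 0.531 and 1.11 CPM in the other low-Sprr1a cells. In those of the sham libraries Ly6c1 stood at 31.3 and 37.3 CPM but Ly6g at 0 and 3.66 CPM. Npy1r stood at 657 and 640 CPM in the Ly6a+ low-Sprr1a cells of CCI and 479 and 446 CPM in those of sham, so it was high in Ly6a+ cells of every library. Gal stood at 6016 and 5608 CPM in the Ly6a+ low-Sprr1a cells of CCI, 2046 and 1769 CPM in those of sham, and 432 and 517 CPM in the other low-Sprr1a cells of CCI.

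These Ly6a+ low-Sprr1a cells of CCI carried more endothelial RNA than the rest. Their summed endothelial level was 178 and 122 CPM against 71.1 and 74.2 CPM in the other low-Sprr1a cells, Flt1 stood at 30.7 and 13.9 CPM against 0.224 and 0.198 CPM, and Pecam1 at 10.5 and 7.43 CPM. Leaving out cells with an endothelial or leukocyte UMI kept 24 of the 27 Ly6a+ Male-CCI cells and 1119131 of their 1138581 UMIs. In Female-CCI it kept 57 of 59 cells and 1972980 of 2019762 UMIs. Without the cells left out the endothelial sums were 69.7 and 72.0 CPM against 70.6 and 73.7 CPM. Pecam1, Cldn5 and Cdh5, which chose the cells left out, add 0 to these sums by construction. Flt1, which did not choose them, still stood at 0.894 and 2.53 CPM against 0.231 and 0.203 CPM. The comparison was made with and without the cells that held such a UMI. With all low-Sprr1a cells 2483 of 15069 genes were called (16.5%), 1095 higher in Ly6a+ cells (7.27%) and 1388 lower (9.21%), and without cells holding such a UMI 2386 of 14978 (15.9%), 1017 higher (6.79%) and 1369 lower (9.14%). The Ly6a+ cells were also among the top 15% of doublet scores in 37.0% and 25.4% of cases, against 10.7% and 9.45% of the other low-Sprr1a cells, and 2148 genes were called without such cells.

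Part of the pattern of the injured members recurred in low-Sprr1a cells, which the rule had left out, taken from the same libraries and mice. Both comparisons split cells at the same Ly6a limit. Of 2619 genes called among Sprr1a+ cells and tested here, 992 were called the same way and 70 the opposite way. The 992 are 37.9% of those calls and 40.8% of the 2429 calls here. Over all genes tested here 7.27% were called higher and 9.21% lower. All 12 of the largest rises were called higher here too, among them Kcnk3 (1.35, SE 0.10), Npy1r (2.05, SE 0.08), Il6 (3.52, SE 0.26) and Sectm1b (3.53, SE 0.22). Of the 12 largest falls 9 were called lower, with Fam19a4 at -7.12 and Casz1 at -4.87, and Crh (-0.40, SE 0.64) and Nts (-1.17, SE 0.80) did not pass. Peptidergic genes were 8 higher and 4 lower of 16.

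Many injury and interferon genes rose in these cells. Regeneration-associated transcription factors were 16 higher and 0 lower of 31 and effectors 31 higher and 2 lower of 44, and without cells holding an endothelial or leukocyte UMI these were 15 and 0 of 31 and 30 and 2 of 44. Atf3 stood at 546 and 471 CPM in the Ly6a+ low-Sprr1a cells against 194 and 219 CPM in the other low-Sprr1a cells. Sprr1a, held under the limit in both, stood at 43.9 and 50.5 CPM against 24.3 and 27.4 CPM. Interferon-stimulated genes were 26 higher and 0 lower of 39 (median 1.05), and 19 and 0 (median 0.67) without the cells holding an endothelial or leukocyte UMI. MHC class I genes were 10 higher and 0 lower of 19, and 7 and 0 of 18 without those cells. Genes of p53 and cell stress were 3 higher and 2 lower of 19. Ly6e stood at 204 and 137 CPM in the Ly6a+ low-Sprr1a cells, against 15.5 and 15 CPM in the other low-Sprr1a cells. The difference between the 2 comparisons was not tested.

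**Figure D5:**
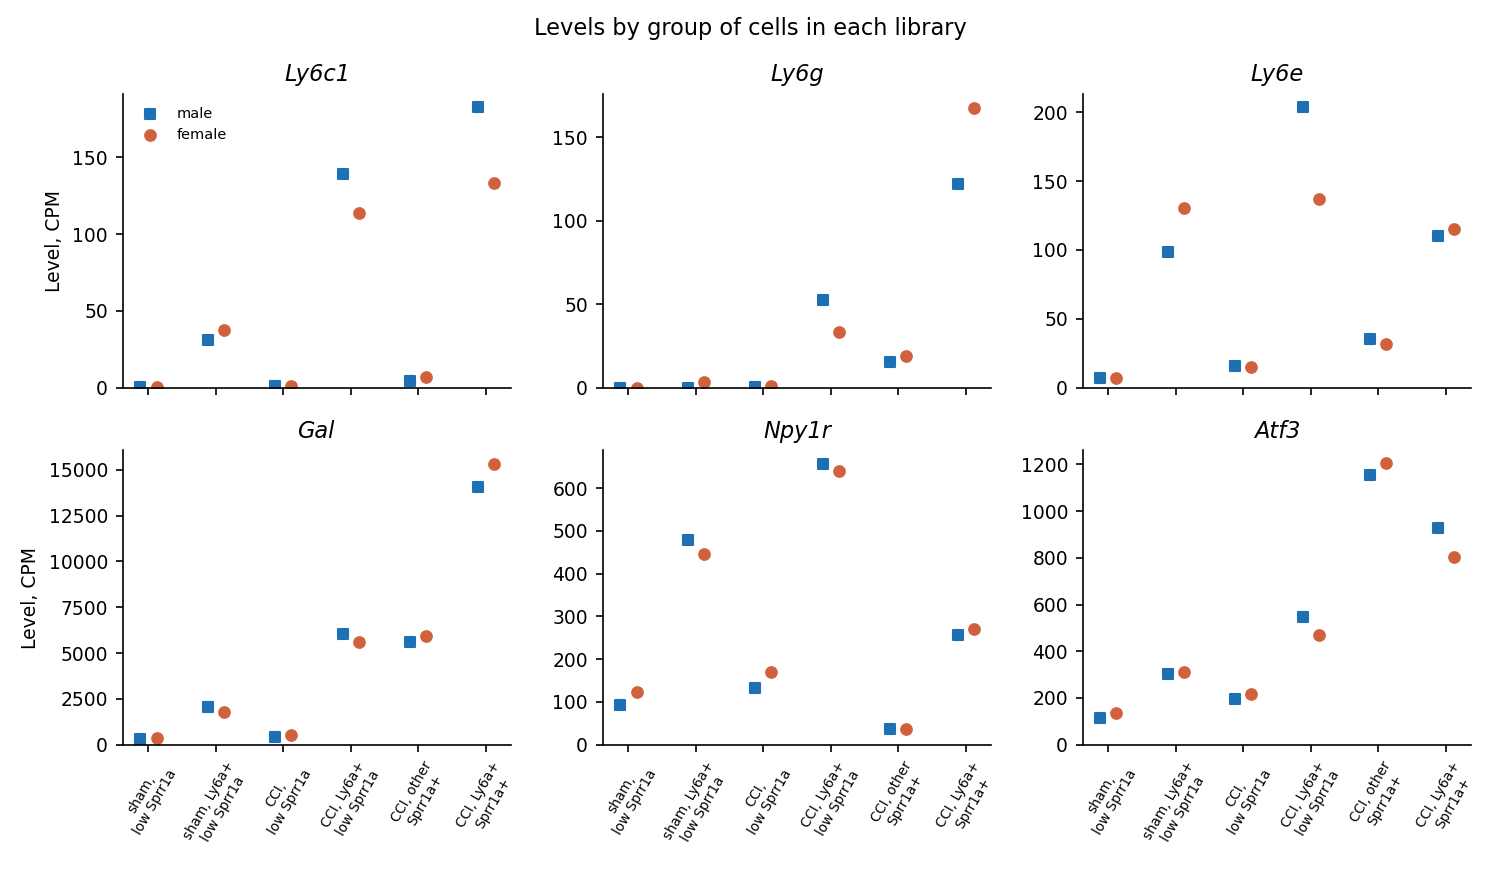
Level in CPM of Ly6c1, Ly6g, Ly6e, Gal, Npy1r and Atf3 in 6 groups of cells, from low-Sprr1a cells of the sham libraries to Ly6a+ Sprr1a+ cells of the CCI libraries, for males and females; each point is the summed UMIs of 1 library. Npy1r is highest in Ly6a+ low-Sprr1a cells of CCI, at 657 and 640 CPM, and Gal in the members, at 14058 and 15315 CPM.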

How the data were processed

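Sorted GFP+ cells of 4 DRG pools were captured by 10x Genomics 3' v3 chemistry. The deposited values are UMI counts per gene and cell, made by the authors with Cell Ranger against mm10 (version 2.1.1 in the submitters' processing notes, 3.0.2 in the matrix headers); the study's own filtering, doublet removal and integration are not in these matrices. Genes were matched to GENCODE M21 (30934 of 31053).

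Cells were kept and chosen as stated at the start of the report, and Scrublet scores were computed with scanpy 1.11.5. UMIs were summed per library and cell group, genes with low counts were removed by filterByExpr, and sums were fitted with edgeR 4.0.16 (robust quasi-likelihood, TMM, library as block, R 4.3.3). Library is a block by design, since both sums come from the same pool of mice: deviations of the 2 sums correlated at r = 0.17. Leaving out a CCI library leaves no residual degree of freedom and gives values only. Shares have Clopper-Pearson 95% intervals. On simulated counts for the main comparison (15117 genes) the test recovered 59.6% of 2-fold and 79.0% of 4-fold changes and called 4 unchanged genes. Only 99 genes were changed by 2-fold and 100 by 4-fold, and the spread was the one fitted to these same sums. The simulation therefore does not give the rate of false calls in these data.

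Named genes were the 12 largest rises and falls called with the same direction in both libraries, and up to 4 per list by size. All needed at least 20 CPM in both libraries of the higher group. A few genes are not reported here. Some other listed genes were named after their values were seen. The members, gene lists and tests were chosen with earlier results of these data known. Sprr1a, Ly6a, Ly6c1 and Ly6g were left out of tests and counts. Alternatives were DESeq2 1.42.0, other size factors, no count filter, no block, other Ly6a, Sprr1a and gene limits, thinning to 5000 UMIs, and leaving out glia-leaning, endothelial, immune or high doublet-score cells.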

Additional observations from a re-analysis of the deposited data

How the results depend on the processing

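The count of 2715 genes called between members and other Sprr1a+ cells was 1679 with DESeq2 (908 higher, 771 lower). It was 1086 of 11543 after thinning to 5000 UMIs (538 and 548) and 1614 of 13584 among Npy1r cells (756 and 858). The 198 calls within lists were 110 after thinning. The 2483 calls among low-Sprr1a cells were 1417 with DESeq2 (699 and 718). In every other setting tried these counts stayed within 1.5 times. Without the replicate block 2591 and 2480 genes were called, and the pairing of sums by library moved neither count by over 1.5 times. Within lists of Sprr1a+ cells, dropping the block left 7 of 12 interferon-stimulated and 3 of 5 NP2 calls and none of the single fibroblast, mural and satellite glia calls. Among low-Sprr1a cells it left 6 of 10 TRP, P2X, ASIC and Piezo channel calls. The share of Sprr1a+ cells that were Ly6a+ was 2.95% and 4.15% at a Ly6a limit of 2 CP10K, 6.93% and 9.01% at a limit of 0.5, 22.9% and 21.1% with any Ly6a UMI, and 5.63% in Male-CCI with any UMI after thinning. With DESeq2 the potassium channel calls were 7 higher and 4 lower, those of TRP, P2X, ASIC and Piezo channels 3 and 3, and those of interferon signalling 2 and 0. After thinning the calls were 5 and 4 for potassium channels, 1 and 2 for sodium channels, 5 and 2 for identity transcription factors, 3 and 2 for large myelinated neuron genes and 1 and 0 for integrins. Some named genes changed sign, of which Apoe was called in the comparison as reported. Among Npy1r cells the log2 change was 0.027 for Plxnc1, 0.19 for Cd55, 0.14 for Pmp22 and -0.039 for Egfl7. After thinning it was 0.034 for Plxnc1, 0.21 for Cd55, -0.20 for Asic2, -0.021 for Apoe, -0.15 for Sparc, 0.15 for Pmp22 and -0.071 for Anxa1. At a Ly6a limit of 0.5 it was 0.027 for Pmp22 and -0.12 for Anxa1, and at a limit of 2 -0.49 for Wfdc3. For Pmp22 it was also 0.012 at a Sprr1a limit of 5, 0.0023 against others with 0 Ly6a UMIs and 0.073 without the top 15% of doublet scores. The cause was not tested. Depth limits genes under about 3 UMIs per member pool, 0.728 and 0.585 CPM.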
